A study of Mus musculus with 18 samples.

Results

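Gamma delta T cells were set against conventional alpha beta T cells of the same organ, sorted from mice that had all received interferon-gamma (IFNg). The comparison takes the 2 arrays of spleen cells gated as TCRgd+ TCRB- (Tgd) against the mean of the population means of CD4+ TCRB+ cells (T4, 2 arrays) and CD8+ TCRB+ cells (T8, 2 arrays), over all genes. It uses 6 of the 18 arrays of the series directly, and the remaining 12 arrays only to estimate the spread of each gene and, where named, as further populations. All mice were male, of the B6 (C57BL/6) background and 6 weeks old, and were studied 2 h after a subcutaneous injection of 10000 U of IFNg. Every group therefore carries the same treatment, and untreated cells were not analysed here. RNA of FACSAria-sorted cells was collected in TriZol and hybridised to Affymetrix Mouse Gene 1.0 ST arrays, which give 1 intensity per probe set. The T4 gate does not exclude CD25+ cells, so regulatory T cells can lie within it. Separate mice are not stated for the 2 arrays of a population. The p-values then speak only of array-to-array spread, which can be technical.

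Gamma delta T cells carry an antigen receptor built from rearranged gamma and delta chains, paired with the same CD3 signalling chains that serve the alpha beta receptor. Many of them acquire an effector programme already in the thymus and respond to cytokines early, without the long priming of naive CD4 and CD8 T cells. A type 17 branch depends on Maf, carries the IL-23 receptor and can make IL-17, and a type 1 branch depends on T-bet and makes IFNg. IFNg itself is bound by Ifngr1, whose partner chain Ifngr2 joins it to signal through the kinases Jak1 and Jak2 to the genes of antigen presentation and cell-autonomous defence.

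The arrays were alike in overall brightness, with medians of all probe sets between 138.5 and 151.0 intensity units over the 18 arrays the lowest on a T8 array and the highest on a Tgd array. Correlations of log2 intensity over all probe sets were 0.9958 within Tgd, 0.9952 within T4 and 0.9939 within T8, and 0.9783 to 0.9832 between Tgd and T4 or T8 arrays. These are across probe sets, which are not independent replicates. The surface genes followed the gates. Cd4 had log2 intensities of 11.80 and 12.18 on the T4 arrays against 6.60 and 6.41 on T8 and 6.99 and 7.52 on Tgd. Cd8a was at 12.28 and 12.24 on T8, 6.89 and 6.81 on T4 and 7.54 and 7.59 on Tgd. The CD3 chain gene Cd3e was bright on all 6 arrays, between 12.70 and 13.06.

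Of 19752 genes tested, 290 passed (1.47%): 229 were higher in Tgd than in the mean of T4 and T8 (1.16% of the genes) and 61 were lower (0.309%). To pass, a gene needed a 2-fold or larger difference together with a limma p, adjusted by Benjamini-Hochberg across the whole table, below 0.05. All differences below are log2 differences of intensity, Tgd minus the mean of T4 and T8 unless another population is named, with the standard error of the fit after ±. Over all genes the median difference was 0.03, and 4228 genes had an unadjusted p under 0.05. Thus 79.0% of the calls were higher in Tgd. With each array centred on its own median the counts were 191 higher and 87 lower, or 68.7% higher. Because the reference is a mean of unlike populations, both parts of it were also tested singly, with the Tgd arrays shared by all 3 comparisons, so that passing several is no independent support. Against T4 alone 357 genes passed (1.81%), of which 237 were higher in Tgd (1.2%) and 120 lower (0.608%), and against T8 alone 329 passed (1.67%), of which 257 were higher (1.3%) and 72 lower (0.365%). The genes that passed as higher than the mean, than T4 and than T8 numbered 149 (0.754% of the genes), and those that passed as lower in all 3 numbered 29 (0.147%).

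**Figure D1:**
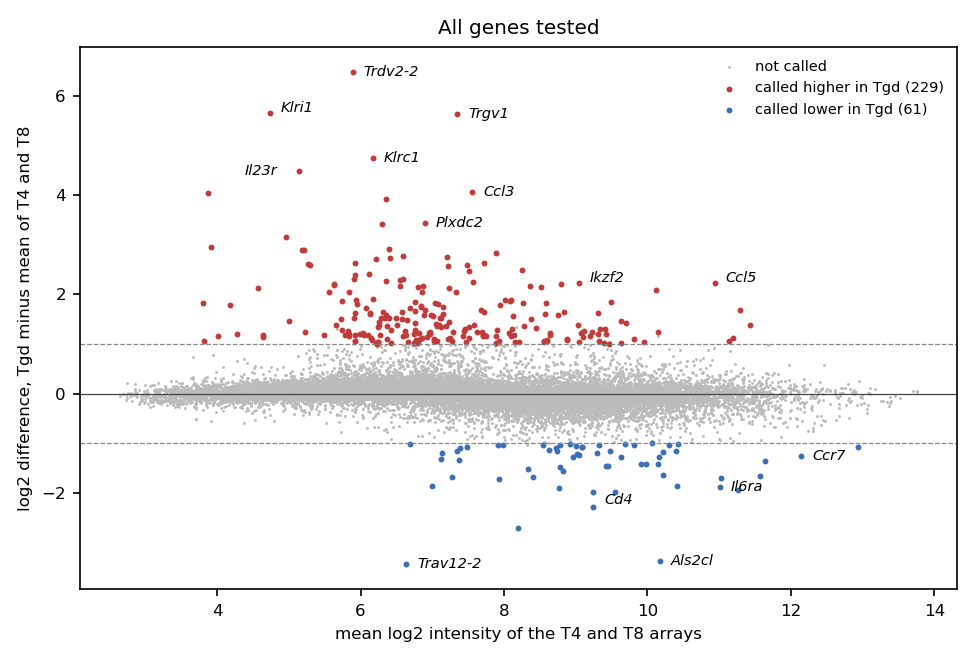
Log2 difference of Tgd minus the mean of T4 and T8 for the 19752 genes tested (vertical axis) against the mean log2 intensity of the T4 and T8 arrays (horizontal axis). Red points are the 229 genes higher and blue points the 61 genes lower in Tgd, dashed lines mark a 2-fold difference, and differences reach from -3.44 for Trav12-2 to 6.49 for Trdv2-2.

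The 12 largest differences in each direction held receptor segments, NK receptor genes and a number of genes outside the lists. Plxdc2, a plexin-domain membrane protein, had log2 intensities of 10.37 and 10.30 on Tgd, 7.19 and 6.68 on T4 and 6.95 and 6.76 on T8, a difference of 3.44 ± 0.13 or 10.9-fold (adjusted p = 1.8e-11). The inhibitory receptor gene Lilr4b was 3.42 ± 0.20 higher, at 9.56 and 9.86 on Tgd against 5.79 to 6.70 on the other 4 arrays. Among genes lower in Tgd, Vipr1, a receptor of vasoactive intestinal peptide, was at 8.52 and 8.59 on Tgd against 10.61 and 10.79 on T4 and 10.13 and 10.14 on T8, a difference of -1.86 ± 0.11. A dimmer probe set of Vipr1 gave -0.44 and did not pass. Tmie, a gene known for mechanotransduction in the inner ear, differed by -1.90 ± 0.13, the RING finger gene Rnf32 by -1.87 ± 0.10 and the immunoglobulin superfamily gene Igsf23 by -1.72 ± 0.16. The Tgd values of these 6 genes overlapped no T4 or T8 value. The genes were chosen for large differences, so this is no further support, and the share over all genes was not computed. For Igsf23 the distance was smaller from T8, at 7.25 and 6.69, than from T4, at 9.03 and 8.75, against 6.17 and 6.25 on Tgd.

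**Figure D2:**
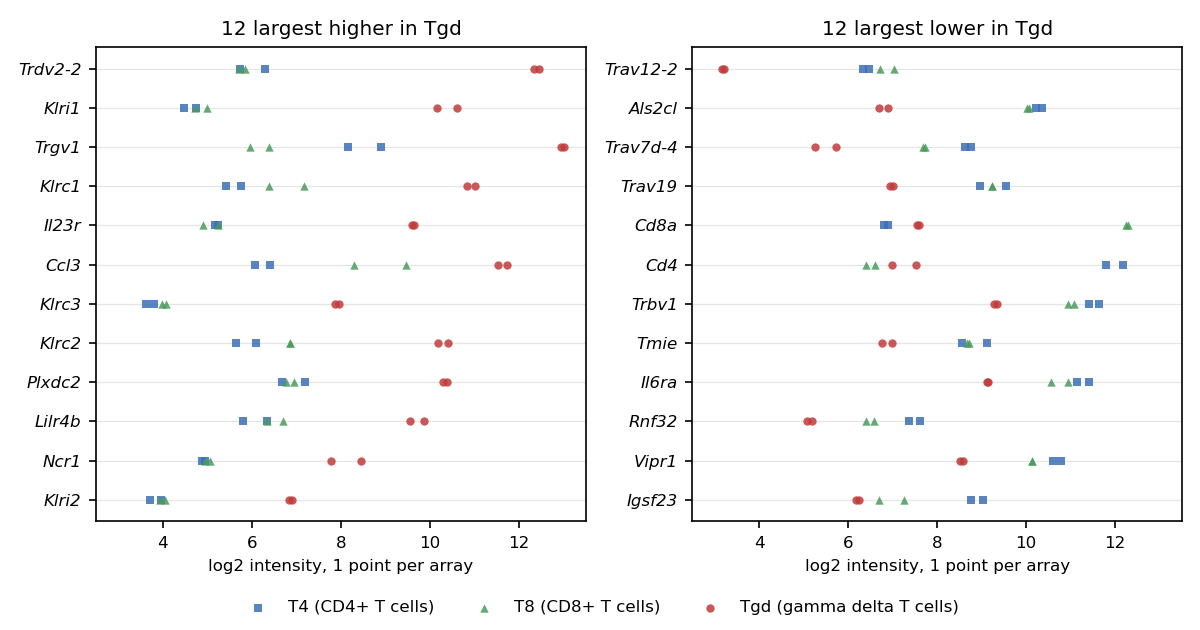
Log2 intensity (horizontal axis, 1 point per array) of the 12 genes with the largest differences in each direction, for T4 (blue squares), T8 (green triangles) and Tgd (red circles). On the higher side both Tgd points lie right of all T4 and T8 points for each gene, and on the lower side Cd8a and Cd4 each have a T cell population at or below the Tgd arrays.

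Receptor segments gave the largest differences. Both gamma and delta segments measured by a probe set of their own passed, each higher in Tgd, with a median difference of 6.07 against 0.03 over all genes. The delta variable segment Trdv2-2 had log2 intensities of 12.44 and 12.34 on Tgd, 6.29 and 5.73 on T4 and 5.84 and 5.72 on T8, a difference of 6.49 ± 0.17 or 90.0-fold (adjusted p = 1.35e-13). The gamma variable segment Trgv1 was at 12.95 and 13.02 on Tgd, 8.90 and 8.16 on T4 and 5.96 and 6.38 on T8, a difference of 5.64 ± 0.18. The 2 comparison populations thus stood apart for Trgv1, with differences of 4.46 ± 0.21 against T4 and 6.82 ± 0.21 against T8. Trgv1 was also bright in NKT cells (NK1.1+ TCRB+), at 11.88 and 11.89, which left a difference of 1.1 ± 0.21 between Tgd and NKT (adjusted p = 0.00236). Trdv2-2 was at 5.50 and 5.56 there, as dim as in T4 and T8.

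Alpha and beta segments were lower in Tgd for 4 of the 6 measured, with a median of -2.11. Trav12-2, an alpha variable segment, was at 3.17 and 3.22 on Tgd, 6.34 and 6.47 on T4 and 6.71 and 7.04 on T8, a difference of -3.44 ± 0.23 (adjusted p = 1.29e-08). Trav7d-4 differed by -2.71 ± 0.21, Trav19 by -2.28 ± 0.13 and the beta segment Trbv1 by -1.94 ± 0.13. Trbv1 remained at 9.35 and 9.28 in Tgd, so the transcript was measured there at a lower level, against 10.93 to 11.64 in T4 and T8. Trav14-1 passed as higher by 1.62 ± 0.18 on its brighter probe set, at 10.94 and 10.91 on Tgd, while its other probe set passed as lower by -1.96; its call is therefore uncertain. Probe sets listed with several symbols cannot be given to 1 gene, but as groups they moved likewise. Both probe sets listed only with gamma variable segments were higher, by 4.45 and 4.60, and 17 of the 24 listed only with alpha, or alpha and delta, variable segments were lower, from -5.41 to -1.39 with a median of -3.39. Over all 1399 probe sets with several symbols, these included, 15 were higher and 22 lower. Constant segments were not analysed here.

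Of 26 measured genes of CD3 and proximal signalling, 2 passed, both higher, and the median difference was -0.03. An unadjusted p under 0.05 was found for 13 of the 26, with differences in both directions from -0.92 to 2.47. The passing genes were Fcer1g, the Fc receptor gamma chain, which can replace CD247 in receptor complexes, and the Src family kinase gene Blk. Fcer1g had log2 intensities of 10.24 and 9.71 on Tgd, 7.43 and 7.99 on T4 and 7.21 and 7.41 on T8, a difference of 2.47 ± 0.14 (adjusted p = 2.74e-09). Blk was at 8.88 and 9.02 on Tgd against 6.73 to 6.88 on the other 4 arrays, a difference of 2.16 ± 0.14. Both genes were well apart from T4 and T8, but they differed in NKT cells: Fcer1g was lower in Tgd than there by -1.01, and Blk higher by 1.86 (adjusted p = 0.000514 and 3.27e-07). The CD3 chain genes Cd3e and Cd3g differed by 0.04 ± 0.14 and 0.05 ± 0.19, Cd247 by 0.17 ± 0.13 and the kinase gene Zap70 by -0.20 ± 0.11. The inhibitory coreceptor genes Cd5 and Cd6 gave -0.67 ± 0.12 and -0.92 ± 0.13, below the 2-fold requirement. Without T4 replicate 2 or Tgd replicate 3, 1 gene of this list passed as lower.

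Among 12 measured genes of coreceptors and the alpha beta lineages, 3 were lower, Cd4, Cd8a and Cd8b1, and 1 was higher, with a median of -0.22. The mean reference splits such genes: Cd4 differed by -4.73 ± 0.19 from T4 and by 0.75 ± 0.19 from T8, and Cd8b1, the CD8 beta chain, was at 9.24 and 9.28 in Tgd, 8.54 and 8.63 in T4 and 12.08 and 11.95 in T8. The gene that passed as higher was Itgae, the alpha E integrin chain (CD103) that binds E-cadherin. It had 9.41 and 9.76 on Tgd, 6.85 and 7.0 on T4 and 9.96 and 10.39 on T8, so it lay above T4 only, and its call was lost without Tgd replicate 3 (0.86), T4 replicate 2 (1.0) or T8 replicate 2 (0.93). Altogether 5 genes lay between the alpha beta populations and passed against each in opposite directions (0.0253% of the genes). These were Cd40lg, Il2ra, Zbtb7b, Haao and St8sia6, named after their values were seen. Zbtb7b encodes ThPOK, the factor of the CD4 lineage, and was at 8.52 and 8.13 in Tgd, 10.47 and 10.21 in T4 and 6.70 and 6.62 in T8.

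The type 17 list showed 12 of 27 measured members higher in Tgd, with a median of 0.86, against 1.16% of all genes. Il23r, the IL-23 receptor chain that sustains IL-17-producing cells, serves as the marker of these cells and had log2 intensities of 9.60 and 9.63 on Tgd, 5.24 and 5.17 on T4 and 4.91 and 5.24 on T8, a difference of 4.48 ± 0.14 or 22.3-fold. In NKT cells Il23r was at 6.04 and 6.31, in NK cells at 5.04 and 5.62 and in Treg at 5.45 and 5.64, so no other lymphoid population came near the Tgd level. Als2cl, a gene related to the GTPase regulator alsin, is the marker of the opposite sign. It was at 6.90 and 6.70 on Tgd, 10.36 and 10.23 on T4 and 10.07 and 10.02 on T8, a difference of -3.37 ± 0.11 or 10.3-fold, and at 8.13 and 8.33 in NKT and 6.14 and 6.35 in NK cells. A second, dimmer probe set of Als2cl gave -0.94 and did not pass.

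The 250 bases before the start of both marker genes are shown because these genes head the comparison in opposite directions. Capitals mark matches on either strand to AGGTCA, a core motif of nuclear receptors. RefSeq places them, on GRCm38.p6, at chr6:67491856-67492105 on the minus strand for Il23r and chr9:110879924-110880173 on the plus strand for Als2cl.
Il23r: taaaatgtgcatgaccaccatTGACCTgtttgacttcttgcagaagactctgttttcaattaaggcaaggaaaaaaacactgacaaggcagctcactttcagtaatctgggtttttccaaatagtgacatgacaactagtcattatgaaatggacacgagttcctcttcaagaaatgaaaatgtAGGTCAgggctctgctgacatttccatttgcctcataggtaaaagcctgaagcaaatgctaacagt
Als2cl: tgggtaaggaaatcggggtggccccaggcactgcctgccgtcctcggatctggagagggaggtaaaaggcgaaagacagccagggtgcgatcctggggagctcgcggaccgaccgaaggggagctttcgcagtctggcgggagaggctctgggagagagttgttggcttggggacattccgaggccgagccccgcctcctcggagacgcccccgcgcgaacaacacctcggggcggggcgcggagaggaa
Il23r held 2 matches and Als2cl none. AGGTCA was found in 12.1% of the 15483 promoters of genes tested. It was found in 13.0% of the 162 promoters of genes higher in Tgd and in 12.2% of the 41 of genes lower in Tgd. GGTGTGA, the T-box core, was found in 3.13%, 4.94% and 2.44% of the same 3 sets. CTTTGAA, the TCF and LEF core, was found in 4.09%, 5.56% and 4.88%, and TNGCGTG, the core of the aryl hydrocarbon receptor, in 5.32%, 3.7% and 2.44%. A match describes letters in this window only.

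Further type 17 members passed, while the cytokine genes of the list did not. Tmem176b, an intracellular cation channel gene found in type 17 cells, was at 9.82 and 9.76 on Tgd, 7.50 and 7.36 on T4 and 6.83 and 7.17 on T8, a difference of 2.58 ± 0.16 (adjusted p = 7.5e-09), and its neighbour Tmem176a differed by 2.31 ± 0.14. Zbtb16, which encodes PLZF, the factor of innate-like T cells, differed by 1.89 ± 0.15, and Maf by 1.87 ± 0.20. Maf was not evenly apart from both references: it was at 9.80 and 10.13 on Tgd, 9.33 and 9.48 on T4 and 6.52 and 7.03 on T8. NKT cells were above Tgd for both factor genes, with means of 11.45 for Zbtb16 and 11.25 for Maf. Also passing, and named after their values were seen, were the protease inhibitor gene Serpinb1a (1.81), the scavenger receptor genes 5830411N06Rik (1.80) and Cd163l1 (1.07), the RORa gene Rora (1.19), Sox4 (1.17) and the IL-17 receptor chain gene Il17re (1.09). The cytokine genes did not pass: Il17a had 6.86 and 6.47 on Tgd against 6.32 to 6.52 on T4 and T8, a difference of 0.24 with an interval of -0.02 to 0.51, and Il17f gave 0.21. Ccr6, a chemokine receptor of type 17 cells, gave 0.99 and Sox13, a factor of gamma delta thymocytes, 0.86.

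The type 1 list had 11 of 19 measured members higher, against 1.16% of all genes, with a median of 1.21. Against T4 alone 13 passed, with a median of 1.56, and against T8 alone 7, with a median of 0.76, each higher in Tgd. The chemokine gene Ccl3, an attractant of inflammatory cells, led with log2 intensities of 11.72 and 11.53 on Tgd, 6.07 and 6.41 on T4 and 8.29 and 9.47 on T8, a difference of 4.07 ± 0.36 or 16.8-fold (adjusted p = 5.03e-07). Ccl5, a chemokine of effector and memory T cells, was at 13.25 and 13.08 on Tgd, 9.74 and 10.28 on T4 and 11.33 and 12.41 on T8, and Xcl1, which attracts cross-presenting dendritic cells, at 10.32 and 10.74, 7.34 and 7.79, and 9.03 and 9.27. For all 3 chemokine genes Tgd were highest and T8 lay between T4 and Tgd. The differences were 2.22 ± 0.24 for Ccl5 and 2.17 ± 0.15 for Xcl1. Slamf7, an activating receptor of NK and effector T cells, differed by 2.22 ± 0.11 (adjusted p = 4.66e-10). Ccl4, the close relative of Ccl3, gave 0.86 and did not pass.

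Ifng and the factor genes of the type 1 programme also passed, and are named here after their values were seen. Ifng itself had log2 intensities of 10.05 and 9.94 on Tgd, 7.20 and 8.59 on T4 and 7.16 and 9.43 on T8, a difference of 1.90 ± 0.46 (adjusted p = 0.0132). The arrays within T4 and within T8 were far apart for this gene, with replicate 3 the higher in both, yet all 4 were below Tgd. Tbx21, which encodes T-bet, differed by 1.25 ± 0.14 and Eomes, its relative, by 1.21 ± 0.18. Eomes was at 10.40 and 10.65 in Tgd, 8.32 and 7.85 in T4 and 10.74 and 10.34 in T8, so the difference came from T4 alone. Il12rb2, the IL-12 receptor chain, had 9.67 and 9.78 on Tgd against 7.76 to 8.27 on T4 and T8, a difference of 1.78 ± 0.16. Tnf gave -0.34 and Cxcr3, a chemokine receptor of type 1 cells, 0.07.

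NK receptor genes had the highest count of any list: 18 of 27 measured receptors and adaptors passed, each higher in Tgd, against 1.16% of all genes. The median difference over the 27 was 1.84. Klri1, a lectin-like receptor gene, had log2 intensities of 10.15 and 10.61 on Tgd, 4.48 and 4.75 on T4 and 5.0 and 4.71 on T8, a difference of 5.65 ± 0.15 or 50.2-fold (adjusted p = 1.35e-13). Klrc1, which encodes the inhibitory receptor NKG2A, was at 11.02 and 10.83 on Tgd, 5.41 and 5.75 on T4 and 6.39 and 7.16 on T8, a difference of 4.75 ± 0.21 or 26.8-fold. The related genes Klrc3 and Klrc2 differed by 4.05 ± 0.21 and 3.93 ± 0.18, and Klri2, a relative of Klri1, by 2.95 ± 0.11. Klrd1 (CD94), the partner chain of the receptors that the Klrc genes encode, differed by 1.03, with 10.60 and 10.24 on Tgd, 8.09 and 7.98 on T4 and 10.83 and 10.67 on T8, so that Tgd were above T4 only. Klrc1, Klrc2 and Klrc3 are near-identical in parts, so that probe sets can share signal among them.

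Other members of the list are activating receptors and adaptors. Ncr1, which encodes NKp46, was at 8.46 and 7.77 on Tgd against 4.88 to 5.05 on the other 4 arrays, a difference of 3.16 ± 0.19, and Klrb1c, the NK1.1 antigen, at 9.08 and 8.79 against 5.81 to 6.64, a difference of 2.72 ± 0.18. The signalling adaptor gene Tyrobp (DAP12) differed by 1.61 ± 0.10 and Klre1, the partner chain of the Klri receptors, by 1.84 ± 0.13. Cd160, a receptor of HVEM, was at 10.65 and 10.81 on Tgd, 7.10 and 7.28 on T4 and 8.77 and 8.41 on T8, a difference of 2.84 ± 0.14, and Cd244a (2B4) differed by 2.74 ± 0.13. None of these 6 genes had a T4 or T8 array at the Tgd level, but they were named for passing with large differences, so this is no further support. By contrast Klrg1, a receptor of late effector cells, gave -0.80, and the adaptor gene Hcst (DAP10) gave -0.26.

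**Figure D3:**
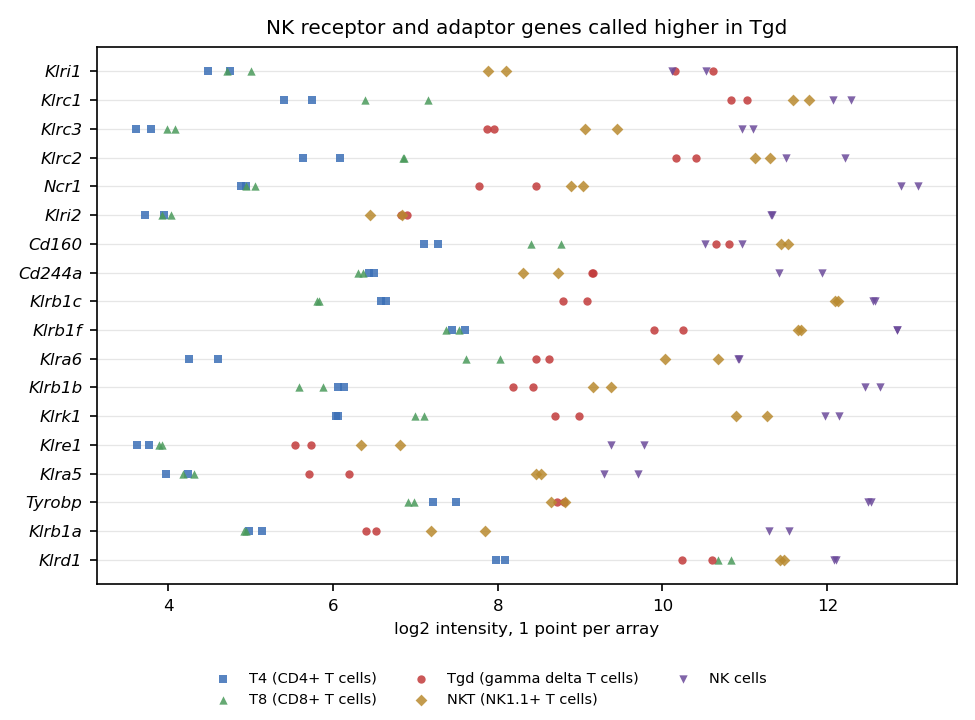
Log2 intensity (horizontal axis, 1 point per array) of the 18 NK receptor and adaptor genes higher in Tgd, for T4, T8, Tgd, NKT and NK cells. Klri1 and Cd160 in Tgd lie at the NK level, while most others lie between T cells and NK cells, and Klrd1 in Tgd lies just below T8.

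Many of these genes neighbour each other on chromosome 6, in the NK gene complex. In the order of the RefSeq gene table, 39 measured genes lie from Klrb1a to Klra2, and 14 were higher in Tgd. All 14 were among the 21 Klr genes of the stretch, and each is also counted in the NK receptor list above. Of the 18 other genes, among them the Clec2 and Clec lectin genes and Cd69, 0 passed in limma. An unadjusted p under 0.05 was found for 4, and differences ran from -0.20 to 0.88. Over all 19752 genes 1.47% passed and 4228 had an unadjusted p under 0.05, so both counts of the other genes are near the background. Cd69, an early activation antigen, gave 0.09, and the Klr genes nearest to it on either side that passed, Klrb1f and Klre1, gave 2.59 and 1.84. The 250 bases before the starts of Klri1 and Klrc1 are shown as the neighbours with the largest differences, from RefSeq on GRCm38.p6, both on the minus strand, at chr6:129717133-129717382 and chr6:129678974-129679223.
Klri1: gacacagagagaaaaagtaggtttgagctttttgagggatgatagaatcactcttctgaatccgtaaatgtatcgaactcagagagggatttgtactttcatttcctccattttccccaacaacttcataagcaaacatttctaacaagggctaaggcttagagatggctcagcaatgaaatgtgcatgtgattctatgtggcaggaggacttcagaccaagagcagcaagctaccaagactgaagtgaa
Klrc1: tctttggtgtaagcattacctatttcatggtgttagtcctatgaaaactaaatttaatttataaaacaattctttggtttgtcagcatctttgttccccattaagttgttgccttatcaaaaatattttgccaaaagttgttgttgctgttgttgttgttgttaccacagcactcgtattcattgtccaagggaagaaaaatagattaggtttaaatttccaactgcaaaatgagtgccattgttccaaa
Neither window held any of the 4 motifs searched, on either strand.

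Levels in NK cells (NK1.1+ TCRB-) were set beside these genes, since the TCRB- condition of the Tgd gate keeps NK cells, which its TCRgd+ condition removes. In bulk arrays, more cells of a type and more RNA per cell cannot be told apart. Of 9 measured NK cell markers 6 were higher in Tgd, against 1.16% of all genes. Among them Ncr1, Klrb1c, Klre1 and Tyrobp are also counted in the NK receptor list, Eomes in the lineage factor list and Gzma in the cytotoxic list. The 6 are therefore no separate support. The summed intensity of the 9 was 3530 to 3648 on Tgd, 986 to 1146 on T4, 2782 to 3258 on T8 and 39368 to 40171 on NK arrays. As a share of the NK level, each taken above the mean of T4 and T8 on the linear scale, the 18 receptor and adaptor genes ranged from 2.08% for Klrb1a to 104.0% for Klri1, with a median of 9.8%. The share was 3.02% for Ncr1, 6.91% for Klrb1c and 2.14% for the granzyme gene Gzma, but 40.9% for Klrc1 and 99.7% for Cd160. The part of NK cells in the differences was not tested. Against NKT cells 394 genes passed (1.99%), with 1.11% of all genes higher and 0.881% lower in Tgd. Tgd were higher there in Klri1 by 2.40 (adjusted p = 3.42e-08) and lower in Klrc3 by -1.34 (adjusted p = 0.00143), and for Klrc1 the difference of -0.76 did not pass.

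Of 19 measured cytotoxic effector genes 3 were higher, against 1.16% of all genes, with a median of 0.28. Against T4 alone 6 passed and against T8 alone 2, each higher in Tgd. Nkg7, a granule membrane protein, was at 12.84 and 12.79 on Tgd, 9.71 and 10.17 on T4 and 12.89 and 12.96 on T8, a difference of 1.38 ± 0.23 that lay against T4 alone. Gzma, a granule protease, was at 7.44 and 6.63 on Tgd against 5.29 to 5.88 on T4 and T8, a difference of 1.38 ± 0.26 that fell to 0.98 and did not pass without Tgd replicate 2. Serpinb6b, a granzyme inhibitor, differed by 1.27 ± 0.12. The pore protein gene Prf1 gave -0.13, Gzmb 0.36 with an interval of -0.28 to 1.01, and the death ligand gene Fasl 0.78. None of these 3 passed.

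Genes of resting T cells and of lymph node entry were lower in 4 of 17 measured members, with 1 higher and a median of -0.22. Il6ra, the IL-6 receptor chain, was at 9.15 and 9.13 on Tgd, 11.15 and 11.41 on T4 and 10.56 and 10.95 on T8, a difference of -1.88 ± 0.13 (adjusted p = 3.15e-08). Igfbp4, a binding protein of insulin-like growth factors marking naive T cells, differed by -1.70 ± 0.16, and Ccr7, the receptor that guides T cells into lymph nodes, by -1.25 ± 0.12. Ccr7 was still bright in Tgd, at 10.85 and 10.93 against 12.22 ± 0.13 in T4 and 12.08 ± 0.11 in T8 (SD, n = 2) and 7.70 and 8.0 in NKT cells. Tgd were higher than NKT cells in Ccr7 by 3.04 (adjusted p = 1.69e-10) and in Il6ra by 1.25 (adjusted p = 2.58e-05), which set Tgd between the conventional T cells and NKT cells. Il7r, S1pr1 and Klf2, which support survival and circulation of resting T cells, gave 0.09, 0.03 and -0.21. The member that passed as higher was Ccr9, the gut homing receptor, at 12.17 and 12.27 on Tgd, 8.91 and 8.56 on T4 and 11.69 and 11.33 on T8, a difference of 2.10 ± 0.17.

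Memory and tissue residence genes were higher in 12 of 28 measured members, against 1.16% of all genes, with a median of 0.79. Beside Fcer1g and Xcl1, the largest were Cd7, a membrane glycoprotein of T and NK cells (1.68 ± 0.13), and Anxa2, a membrane-binding annexin (1.68 ± 0.18). Cd7 was at 12.93 and 13.01 on Tgd, 10.76 and 10.59 on T4 and 11.71 and 12.10 on T8. The classical memory antigen gene Cd44 gave 0.34 and Cd69 0.09. Against T4 alone 8 members of this list were higher and 1 lower, and against T8 alone 13 were higher and 0 lower. Chemokine and lipid receptors had 4 members higher and 2 lower of 24. Cxcr2, a receptor better known from neutrophils, was at 6.65 and 6.75 on Tgd against 4.35 to 4.79 on T4 and T8, a difference of 2.13 ± 0.27 (adjusted p = 3.67e-05), and Ccr2, an inflammatory chemokine receptor, differed by 1.35 ± 0.24. Besides Ccr7, Cxcr5, the receptor for B cell follicles, was lower, by -1.16, and is named after its value was seen. Without Tgd replicate 3 1 of these 24 genes was lower.

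Of 14 measured integrin chains 6 were higher and 1 lower, against 1.16% and 0.309% of all genes. Against T4 alone 3 were higher and against T8 alone 6, with 1 lower each time, and 3 were higher than the mean with 64 added to the intensity before log2. Itgax (CD11c) was at 7.97 and 8.18 on Tgd, 6.27 and 6.39 on T4 and 6.46 and 7.19 on T8, a difference of 1.5 ± 0.17. Itga2, the collagen receptor chain CD49b, differed by 1.25 ± 0.17, and Itgb3 by 1.21 ± 0.10. Itgb3 was at 10.71 and 10.54 on Tgd and 10.61 and 10.52 on T4, so that T8, at 8.38 and 8.16, set the difference. Itga6, a laminin receptor chain, was lower, at 8.55 and 8.57 on Tgd, 10.42 and 10.33 on T4 and 9.67 and 9.52 on T8, by -1.42 ± 0.12 (adjusted p = 2.27e-07).

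Lineage transcription factor genes passed as higher for 12 of 36 measured, against 1.16% of all genes, with a median of 0.57. Ahr, the aryl hydrocarbon receptor, was at 9.77 and 9.89 on Tgd, 7.87 and 7.80 on T4 and 7.18 and 7.44 on T8, a difference of 2.26 ± 0.17 (adjusted p = 1.01e-07). Ikzf2, which encodes Helios, was at 11.22 and 11.32 on Tgd, 9.45 and 9.45 on T4 and 8.88 and 8.41 on T8, a difference of 2.22 ± 0.15. Treg, in which Helios is a common marker, were at 11.69 and 11.37. The other 10 included Zbtb16, Maf, Tbx21, Eomes, Rora and Sox4, described above, and the E protein gene Tcf4 (1.68), Zeb2 (1.63), Id2 (1.07) and Hhex (1.06), named after their values were seen. Gata3, needed by CD4 T cells, gave 0.24, Lef1, a factor of naive T cells, -0.50 and Bcl11b, a T cell identity factor, -0.47. Against T4 alone 12 members of this list were higher and 3 lower, with differences from -2.37 to 2.44. Against T8 alone 11 were higher and 0 lower. With quantile normalization or median centring 1 member was lower than the mean of T4 and T8.

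**Figure D4:**
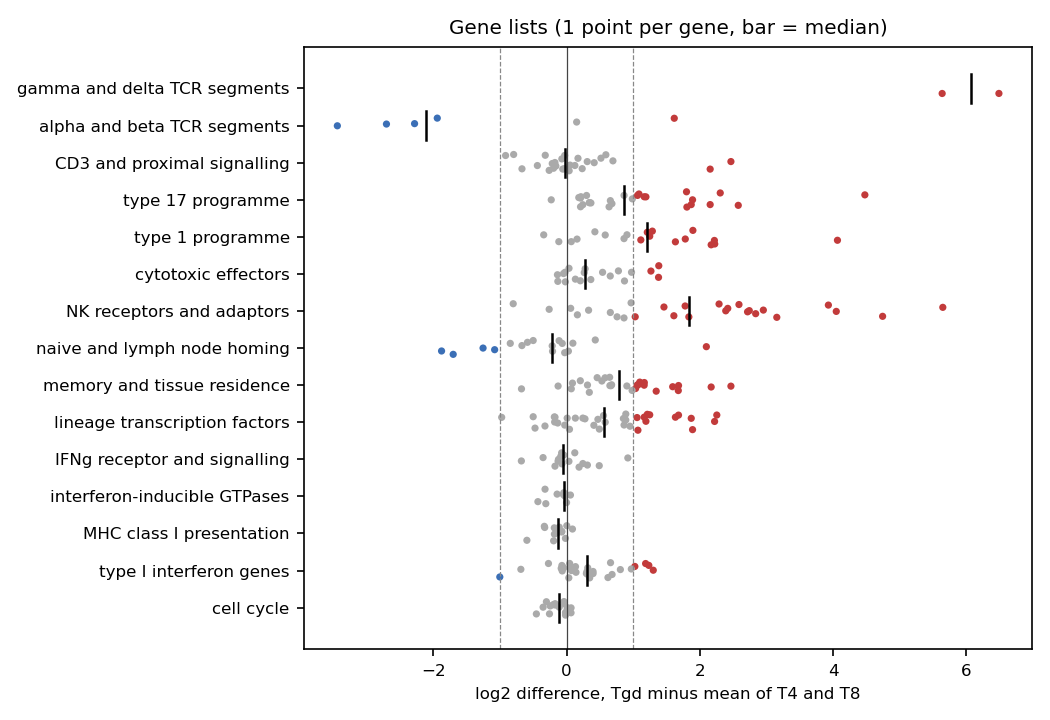
Log2 difference of Tgd minus the mean of T4 and T8 (horizontal axis) for each measured gene of 15 lists, with red points higher, blue points lower, grey points not passing, and black bars the list medians. The medians of the NK receptor, type 1 and type 17 lists lie at 1.84, 1.21 and 0.86, and those of the IFNg signalling, GTPase and MHC class I lists at -0.06, -0.04 and -0.13.

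Cytokine receptors had 5 members higher and 3 lower of 30. Beside Il23r and Il12rb2 on the higher side stood Csf2rb, the common beta chain of the IL-3, IL-5 and GM-CSF receptors, at 8.31 and 8.91 on Tgd against 6.65 to 6.86 on T4 and T8, a difference of 1.86 ± 0.17. Il2rb, shared by the IL-2 and IL-15 receptors, differed by 1.11 and was named after its value was seen, as were Tgfbr3 (-1.24) and Il1rl2 (-1.04) on the lower side. Il2ra (CD25) was at 9.75 and 9.99 in Tgd, 11.01 and 10.99 in T4 and 6.86 and 6.88 in T8.

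Of 32 costimulatory and inhibitory receptors, 3 were higher and 1 lower, with a median of -0.06. The mean reference joins unlike results here: against T4 alone 4 were higher and 7 lower, with a median of -0.42, and against T8 alone 7 passed, each higher, with a median of 0.23. Pdcd1, which encodes PD-1, was at 10.25 and 10.45 on Tgd, 8.63 and 8.37 on T4 and 6.83 and 7.04 on T8, a difference of 2.63 ± 0.16 or 6.19-fold (adjusted p = 3.58e-09). Cd160 and Cd244a were the other two. Pdcd1 was also higher in Tgd than in NKT cells, at 8.18 and 8.69, by 1.91 (adjusted p = 1.26e-06). Slamf1, a self-ligand receptor of T cells, was lower by -1.46 ± 0.16. The count on the lower side was small and rose to 2 without T4 replicate 2, T4 replicate 3, T8 replicate 2 or Tgd replicate 3. It was also 2 with a replicate block on 18 or on 6 arrays, with quantile normalization and with dim genes left out, and 3 with median centring. Lag3, Tigit and Havcr2, further inhibitory receptors of activated T cells, gave 0.19, -0.12 and 0.20.

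Genes of the response to IFNg itself were compared 2 h after the injection. At a background of 1.47%, a count of 0 in a list of this size is near the background, so the intervals of single genes are given. Of 16 measured genes of IFNg receptor and signalling 0 passed in limma and 7 had an unadjusted p under 0.05, with a median of -0.06. The receptor chains differed in opposite directions, each within the 2-fold requirement. Ifngr1, the binding chain, was at 11.82 and 11.86 on Tgd, 10.68 and 10.67 on T4 and 11.22 and 11.12 on T8, a difference of 0.92 ± 0.09 (adjusted p = 2.54e-06). Ifngr2, the signalling chain, was at 9.57 and 9.62 on Tgd, 10.69 and 10.52 on T4 and 9.88 and 10.01 on T8, a difference of -0.68 ± 0.10. For both chains Tgd were outside the range of the other 4 arrays, and against T4 alone both passed, with 1.17 for Ifngr1 and -1.01 for Ifngr2. Jak2 gave 0.49 ± 0.11 and Irf1, an early target gene, -0.17 with an interval of -0.36 to 0.01.

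Interferon-inducible GTPases, which act against pathogens inside cells, gave 0 of 11 measured genes past the test in limma and 2 with an unadjusted p under 0.05. Their differences ran from -0.43 to 0.06, and no 95% interval reached beyond -0.69 or 0.42. Against T4 alone 0 passed and 5 had an unadjusted p under 0.05, with differences from -0.82 to 0.03 and a lowest 95% bound of -1.21. Against T8 alone 0 passed and 0 had an unadjusted p under 0.05, with differences from -0.22 to 0.35. Against the mean the lowest was Gbp2b, at 6.54 and 6.43 on Tgd, 7.19 and 7.05 on T4 and 6.75 and 6.65 on T8. The immunity-related GTPase gene Iigp1 gave -0.32 with an interval of -0.67 to 0.02. Of 13 measured genes of MHC class I presentation, 0 passed and 3 had an unadjusted p under 0.05, with differences from -0.60 to 0.09. Psmb9, an immunoproteasome subunit, was the lowest, at 10.03 and 9.76 on Tgd, 10.49 and 10.55 on T4 and 10.69 and 10.25 on T8, and the peptide transporter gene Tap1 gave -0.33 ± 0.07. Against the mean these 3 lists had counts of 0 also under each of the 16 alternative settings. Probe sets listed only with several GTPases (5, from -0.30 to 0.13) or several MHC class I genes (5, from -0.46 to 0.56) did not pass either.

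**Figure D5:**
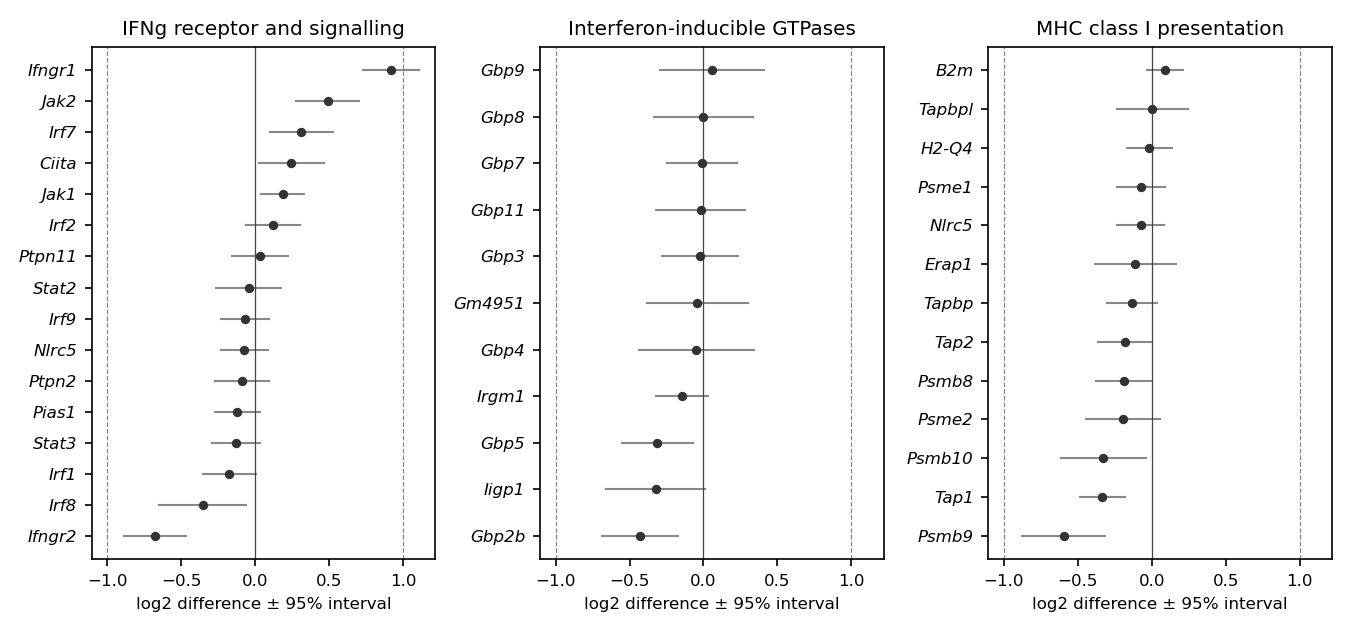
Log2 difference of Tgd minus the mean of T4 and T8 with its 95% interval (horizontal axis) for the measured genes of 3 lists: 16 of IFNg receptor and signalling, 11 interferon-inducible GTPases and 13 of MHC class I presentation. Dashed lines mark a 2-fold difference; all points lie between them, and Ifngr1 and Ifngr2 are the outermost points of the first panel.

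Type I interferon genes, many of which answer interferon-alpha and -beta more than IFNg, had 4 of 30 measured members higher and 1 lower, with a median of 0.31. Rsad2, an antiviral radical-SAM enzyme, was at 9.15 and 9.68 on Tgd, 8.56 and 7.78 on T4 and 8.35 and 7.77 on T8, a difference of 1.30 ± 0.24 (adjusted p = 0.00157). The antiviral GTPase gene Mx1 differed by 1.23 ± 0.21, the oligoadenylate synthetase-like gene Oasl1 by 1.19 ± 0.16 and Oas1a by 1.02 ± 0.18. Without Tgd replicate 3, Oasl1 alone of these 4 passed, with 1.03 for Rsad2 (adjusted p = 0.0693), 1.0 for Mx1 and 0.99 for Oas1a, and Oas1a was also lost without T4 replicate 3 (0.88) or T8 replicate 3 (0.86). Oas2, named after its value was seen, was lower by -1.0, at the edge of the requirement, and that count fell to 0 without T4 replicate 2 or T8 replicate 2. Against T8 alone 2 of 11 feedback genes passed as higher, with a median of 0.22, and against T4 alone 0, with a median of -0.12. Against the mean these genes, such as Socs1, an inhibitor of Jak kinases, gave 0 passes of 11 in limma. An unadjusted p under 0.05 was found for 6, and the median was 0.11, with -0.54 for Socs1 and 0.81 for Socs2. Without T8 replicate 3 1 feedback gene passed.

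Immediate early genes, which respond within minutes to receptor signals or to handling, were higher in 4 of 21 measured members, with a median of 0.28. With a replicate block the count was 6 on 18 arrays and 5 on the 6 arrays of Tgd, T4 and T8. On those 6 arrays without a block it was 3. Nr4a2, an orphan nuclear receptor induced by T cell receptor signals, was at 10.60 and 10.91 on Tgd, 7.85 and 8.17 on T4 and 7.73 and 9.27 on T8, a difference of 2.5 ± 0.39 (adjusted p = 0.000358). Its relative Nr4a1 (Nur77) differed by 1.42 ± 0.33, the AP-1 gene Fosb by 1.57 ± 0.44 and the heat shock gene Hspa1a by 1.12 ± 0.33. These genes varied within T4 and T8: Fosb was at 7.32 and 8.94 on T4 and 7.28 and 8.98 on T8, and Fos, which gave 1.34 and did not pass, at 6.91 and 9.40 and at 6.88 and 9.47, with replicate 3 the higher each time. Replicate 3 of T4 and T8 thus came up to the Tgd values of 9.44 and 9.56 for Fos. The count fell to 2 without T4 replicate 2 or T8 replicate 2 and to 1 without either Tgd array. Fosb did not pass without T4 replicate 2 (1.16), T8 replicate 2 (1.14), Tgd replicate 2 (1.86) or Tgd replicate 3 (1.28), nor did Nr4a1 without Tgd replicate 2 (1.44) or 3 (1.40), and Hspa1a was lost without any of the 6 arrays (1.05 to 1.18). Cell cycle genes gave 0 passes of 17 in limma and 1 unadjusted p under 0.05, with differences from -0.45 to 0.07.

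Markers of other cells were read beside these results, and their part in them was not tested. B cell markers passed as higher for 3 of 11 measured, Blk, Cd79b and Ms4a1, with a median of 0.79, and their summed intensity was 3379 to 3896 on Tgd, 1407 to 1580 on T4 and 1929 to 2225 on T8. Cd79b, a B cell receptor chain, was at 10.46 and 10.38 on Tgd, 8.11 and 8.18 on T4 and 9.94 and 9.88 on T8, a difference of 1.39 ± 0.16. Ms4a1 (CD20) was at 7.34 and 8.13 on Tgd, 6.44 and 6.51 on T4 and 6.80 and 5.72 on T8, a difference of 1.37 ± 0.25 that fell to 0.98 and did not pass without Tgd replicate 3. The B cell factor gene Pax5 gave 0.32 and Ebf1 0.52, neither past the test, and without T8 replicate 2 the count rose to 5. Dendritic cell markers had Ccr9 and Itgax higher of 11, granulocyte markers Cxcr2 of 12, and monocyte markers Ccr2 of 12. Without T8 replicate 2, 4 dendritic cell markers passed, without Tgd replicate 3, 2 granulocyte markers, and without T4 replicate 2, 2 monocyte markers. Red cell and platelet markers gave 0 of 5 in limma and 0 with an unadjusted p under 0.05.

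Regulatory T cell markers were lower in 2 of 12 measured members, Gpr83 and Nrp1, and higher in 1, Ikzf2, with a median of -0.75. Against T4 alone 9 of the 12 were lower and 1 higher, and against T8 alone 0 were lower and 2 higher. The summed intensity of all 12 was 10637 to 10796 on T4, 6082 to 6687 on Tgd and 3104 to 3636 on T8, and 31499 to 38533 on Treg arrays. Gpr83, a receptor gene marking regulatory T cells, was at 7.24 and 7.29 on Tgd, 9.61 and 9.43 on T4 and 8.0 and 8.23 on T8, a difference of -1.55 ± 0.14. Nrp1, the coreceptor neuropilin-1, differed by -1.08 ± 0.10, which fell to -0.94 and did not pass without Tgd replicate 2; it was at 6.28 and 6.54 on Tgd, 8.49 and 8.44 on T4 and 6.48 and 6.55 on T8. Foxp3, the defining factor, was at 9.97 ± 0.05 on T4 (SD, n = 2), 7.15 and 7.20 on T8 and 7.61 and 7.59 on Tgd, and did not pass against the mean. The summed regulatory markers were thus higher on T4 than on Tgd or T8, and the part of regulatory T cells in differences resting on T4 was not tested. Without Tgd replicate 2 the counts were 1 lower and 2 higher, and with each array centred on its median the lower count was 6.

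A list of basophil and mast cell genes was added after the values were seen, because Cpa3, Mcpt8 and Kit were among the higher genes. Of 13 members 5 were higher, against 1.16% of all genes, with a median of 0.80. The summed intensity of the 13 was 2201 to 2535 on Tgd, 1153 to 1165 on T4, 1068 to 1120 on T8 and 1997 to 2217 on NK and NKT arrays. Cpa3, Mcpt8 and Kit, which prompted the list, are among the 5, so the count, the median and the sum are no independent support. The count fell to 2 with dim genes left out, and to 2 with 64 added to the intensity before log2. Kit, the stem cell factor receptor, was at 9.10 and 9.52 on Tgd, 6.07 and 6.27 on T4 and 6.53 and 6.73 on T8, and 8.63 and 8.45 on NK. Cpa3, a carboxypeptidase of mast cell granules, was at 7.85 and 7.91 on Tgd against 5.10 to 5.37 on T4 and T8, a difference of 2.61 ± 0.12. The basophil protease gene Mcpt8 differed by 1.25, Ms4a2, the beta chain of the IgE receptor, by 1.2 and Cd200r3 by 1.17. The alpha chain gene of that receptor, Fcer1a, was at 5.29 and 4.76 on Tgd against 4.26 to 4.60 and gave 0.61, and the tryptase gene Tpsab1 gave 0.04; neither passed.

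A smaller set of genes was higher in Tgd than in every other lymphoid population. Against T4, T8, NKT, NK and Treg singly, as well as against the mean, 31 genes passed as higher (0.157% of the genes). The Tgd arrays are shared by all these comparisons, so passing several is no independent support. Against NK cells alone 3.76% of the genes passed, 1.79% higher and 1.97% lower in Tgd, and against Treg alone 2.06%, 1.19% higher and 0.866% lower. Beside Trdv2-2, Trgv1 and Il23r they included Plxdc2, Pdcd1, Blk, Tmem176a, Tmem176b, Csf2rb and Cxcr2, and, named after their values were seen, Gria3, Abi3bp, Cpa3, Hdac9 and Prdm16. Genes of basophils or mast cells and of myeloid cells were also among the 31. Beside Cpa3 and the granulocyte marker Cxcr2, these included Mcpt8 (1.25), Ms4a2 (1.2) and the chemokine genes Ccl6 (2.63) and Ccl9 (1.72). The complement receptor gene C3ar1 (1.73) was another. Apart from Cxcr2, all were named after their values were seen. Ccl6 was at 8.63 and 8.49 on Tgd, with means of 12.27 in the MF population (peritoneal F4/80+ ICAM2+ cells) and 11.98 in the GN population (splenic Ly6G+ cells), and C3ar1 at 7.66 and 7.93, with an MF mean of 12.73. The part of such cells in the set was not tested. Gria3, a subunit of AMPA glutamate receptors, was at 9.29 and 9.46 on Tgd, 5.14 and 5.41 on T4 and 7.71 and 8.10 on T8, with means of 5.20 in NKT, 5.16 in NK and 5.05 in Treg. The histone deacetylase gene Hdac9 was at 9.03 and 9.02 on Tgd against 6.69 to 6.98 on T4 and T8, and the zinc finger factor gene Prdm16 at 9.30 and 9.46 against 7.26 to 7.46. The means of NKT, NK and Treg lay between 6.84 and 7.57 for Hdac9 and between 7.21 and 7.61 for Prdm16, well below Tgd. Sox4 and Sox5, developmental HMG-box factors, and Myb, a factor of immature lymphocytes, also belonged to the 31, with differences of 1.17, 1.2 and 1.47 from the mean of T4 and T8.

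Of 297 microRNA genes tested, 3 passed, against 1.47% of all genes, so the count is near the background and says nothing about microRNAs as a class. Each of the 3 was higher in Tgd, and they are named after their values were seen. Their probe sets read the precursor or its host transcript, not the mature microRNA. Mir181b-1, of the miR-181 family that sets the signalling threshold of developing T cells, was at 7.57 and 8.34 on Tgd against 5.94 to 6.77 on T4 and T8, a difference of 1.64 ± 0.22 (adjusted p = 6.87e-05). Mir15b, of a family that restrains the cell cycle, differed by 1.1 ± 0.24 and Mir340 by 1.07 ± 0.20. The mature 5p sequences from RefSeq (GRCm38.p6) are shown to identify them, with the seed, bases 2 to 8, in capitals; the 3 seeds differ.
mmu-miR-181b-5p: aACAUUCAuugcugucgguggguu
mmu-miR-15b-5p: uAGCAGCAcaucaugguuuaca
mmu-miR-340-5p: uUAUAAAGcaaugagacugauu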

How the data were processed

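Each probe set has, on each array, a deposited intensity (linear, not log). The authors made it with Affymetrix Power Tools and RMA, per the submitters' processing notes. Versions and joint normalization of all arrays were not stated in the labels. RMA compresses differences of dim genes. Log2 was taken of the 24922 probe sets. GEO's platform annotation, updated by Entrez number to RefSeq (GRCm38.p6), gave 21425 probe sets 1 symbol, 1399 several and 2098 none; 21347 of the single symbols were matched. Per gene the brightest single-symbol probe set was used (921 genes had more than 1), which left 19752 genes. Array number, 2 per population, limits the precision.

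A linear model with a mean for each population was fitted to all 18 arrays (R 4.3.3, limma 3.58.1; eBayes used a mean-variance trend), with 9 residual and 7.69 prior degrees of freedom and two-sided tests. Every printed adjusted p is limma's, Benjamini-Hochberg over all genes. Calls of probe sets with several symbols, and of further probe sets of a gene, came from fits of their own, adjusted over the probe sets fitted. The code was tested on simulated data. The members and lists were chosen with earlier results of these data known. Named genes were, among those that passed and without clone, microRNA and small RNA names, the 12 largest per direction, up to 4 per list by size, the sort genes, Il23r and Als2cl; other genes were named after their values were seen. List counts refer to members measured by a single-symbol probe set. Those against the mean of T4 and T8 stand beside 1.16% of all genes higher and 0.309% lower. Promoter and microRNA sequences came from RefSeq tables by symbol; 203 of the 290 genes called had a promoter there. Alternatives were another spread, other arrays in the fit, a replicate block, quantile normalization, median centring, a dim filter, log2(intensity + 64), the mean of all probe sets, and each array left out.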

Additional observations from a re-analysis of the deposited data

How the results depend on the processing

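Counts of genes were stable under most of the 16 alternatives. Adding 64 to the intensity before log2 gave 137 higher and 37 lower genes against the mean of T4 and T8 (229 and 61 as reported), 150 higher against T4, 144 higher and 33 lower against T8 and 142 higher against NKT; the fold of dim genes shrinks by construction there. Median centring gave 113 lower genes against T8 (72 as reported) and moved the median of all genes from 0.034 to -0.063. Leaving out 1 array in turn gave 215 to 243 higher and 61 to 73 lower genes against the mean. Of the 1151 comparisons of named genes with an alternative, 1112 kept the call and 39 lost it without a change of sign, and 59 of the 72 named genes kept it under every alternative. With 64 added 10 named genes lost the call: Cxcr2 (0.93), Gzma (0.78), Hspa1a (0.9), Itgae (0.81), Klre1 (0.55), Ms4a1 (0.92), Mx1 (0.95), Nrp1 (-0.77), Oas1a (0.85) and Rnf32 (-0.97). Among the lists this setting gave 2 type I interferon genes, 0 coreceptor and lineage genes and 0 granulocyte markers higher, and 1 regulatory T cell marker, 1 chemokine receptor and 0 type I interferon genes lower. The cause of losses under other settings was not tested. Deviations of same-numbered arrays correlated at -0.16 for Tgd with T4 and 0.04 for Tgd with T8, but at 0.34 for T4 with T8, and at up to 0.47 (T8 with NK) among the other pairs of populations. Since not every pair was above 0.1, the numbers were not taken as pairs; with a replicate block the counts were 232 and 62 on 18 arrays and 233 and 62 on 6. A crossed block, added after seeing the data, gave 241 higher and 121 lower against T4. Genes near background and differences close to 2-fold are the least certain with 2 arrays per population.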
